A study of Mus musculus with 16 samples.

Results

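The transcriptome of resting brain endothelial cells (bECs), the cells that line the blood vessels of the brain, was described in the 4 CTRL sham libraries of a series of 16. They were chosen by their labels alone: genotype CTRL and treatment sham. No other group entered, and all values are levels and orders of genes within the same 4 libraries. The series has 4 groups of 4 libraries from 2 genotypes (CTRL and YT-iKO) and 2 operations (sham and MCAo). MCAo is an occlusion of the middle cerebral artery. CTRL mice were littermates of the YT-iKO knockouts. They were Yap fl/fl and Wwtr1 fl/fl (Wwtr1 encodes TAZ). As the study describes its controls, they lacked the Pdgfb-iCreER-eGFP transgene that deletes both genes in endothelium, so that Yap and Taz were intact. They were given tamoxifen as the knockouts were. The sham operation involved surgery at the left carotid but no occlusion. Tissue was taken 72 hours afterward from adult mice of either sex, whose exact age is not given in the sources used here. Each library was made from the pooled tissue of more than 1 mouse, so the pool and not the mouse was the replicate, and the spread given as SD is that between pools. Cells were enriched for CD31 (the product of Pecam1) on magnetic beads and then sorted as living (DAPI-), CD45- and CD31+ cells. "Resting" thus stands for cells without stroke or knockout, 72 hours after anesthesia and surgery and after enzymatic dissociation of the tissue.

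Endothelium of the brain forms the blood-brain barrier. Tight junctions seal the gap between neighboring cells, transport through vesicles is low, and the exchange of sugars, amino acids, hormones and drugs therefore depends on transporters in the cell membrane. Wnt ligands that act through the coactivator beta-catenin maintain these properties, and transcription factors of the ETS, SOX, forkhead and KLF families define endothelial cells in general. Many of the proteins belong to families of paralogs, genes that descend from a common ancestor, and the question asked here was which member of each family was abundant in these cells.

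Between 14074179 and 18542103 reads were assigned to genes per library (median 16441012), over 37003 genes. Counts were scaled to CPM, the reads of a gene per 1000000 reads of the library, with factors between 0.983 and 1.02. Genes differ in length, and a long transcript gives more reads than a short one of the same abundance. Levels of different genes were therefore compared only as CPM per kilobase of exon (CPM per kb). The length assumed for a gene changes its level. With the longest annotated transcript in place of all exons, 66 of the 312 levels named here were over 1.5 times higher, up to 3.19 times. They include those of Sptbn1 (962 CPM per kb), Slco1a4 (709), Ly6c1 (548), Pecam1 (322), Kdr (220.0), Vwf (128) and Tmsb10 (120.1 CPM per kb). With the median transcript length, 235 were over 1.5 times higher, and the median ratio was 2.43 and the highest 35.1. Of 108 folds of a leading gene over the next in its family, 24 changed by over 1.5 times with the longest transcript and 68 with the median, in the latter by up to 10.5 times upward and by a like factor downward. The folds given here hold for lengths of all exons. A gene with 3 reads in a library has between 0.160 and 0.217 CPM, which is the limit below which a level was not read. Olfactory, vomeronasal and taste receptor genes, which bECs are not known to use, gave a background of 0.150 to 0.193 CPM per kb in the 4 libraries, and 95% of the 1257 such genes in the table lay below 0.430 CPM per kb. This value was taken as the background limit. The deposited table lists only genes with at least 6 reads in 3 of the 16 libraries, so the lowest genes are missing from it, and 194 of the 1451 annotated receptor genes were not in it. With these set to 0 the limit was 0.415 CPM per kb. Of 20525 protein-coding nuclear genes in the table, 14406 (70.2%) were above the limit taken, and 16631 genes of all kinds had at least 1 CPM in all 4 libraries. Among the 8889 genes whose mean reached 10 CPM, the median SD of log2(CPM + 1) between libraries was 0.117, and the 6 pairs of libraries correlated with Pearson's r between 0.974 and 0.991 across these genes, which are not independent of each other. Replicates 1 and 2 had no more than 2.27 CPM of Xist, the RNA of the inactive X chromosome, and at least 101 CPM of the Y-linked gene Ddx3y, whereas replicates 3 and 4 had 922 and 713 CPM of Xist and almost no Ddx3y. Replicate 4 also stood apart in 29 genes, which are described with the differences between the libraries.

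The labelled cell type was set beside its markers. The lists were chosen with earlier results of these data known, and Pecam1 encodes the antigen of the sort. The levels below are therefore a description and not an independent check of cell type. All 15 endothelial markers lay in the top 10% of protein-coding genes by CPM per kb, that is at or above 16.1 CPM per kb. Cldn5, the main claudin of brain endothelium (ENSMUSG00000041378, chr16:18776847-18778262, plus strand on GRCm38), had 796, 828, 769 and 876 CPM per kb in replicates 1 to 4. Pecam1 (ENSMUSG00000020717, chr11:106654217-106750628, minus strand), the adhesion molecule used for the sort, had 173, 189, 183 and 167 CPM per kb. Cdh5 (ENSMUSG00000031871, chr8:104101625-104144511, plus strand), the cadherin of endothelial adherens junctions, had 257, 296, 285 and 274 CPM per kb. Mfsd2a (ENSMUSG00000028655, chr4:122946850-122961188, minus strand), a lipid transporter of brain endothelium, had 129, 135, 105 and 125 CPM per kb and was lowest in replicate 3. The lowest of the 15 were the ETS factor Erg with 65.0 ± 2.15 (SD, n = 4) and the sialomucin Emcn with 47.5 ± 3.36 CPM per kb.

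Of the markers of other cells, 2 of the 10 pericyte markers reached the range of endothelial markers. Rgs5, a regulator of G-protein signaling, had 111, 95.7, 111 and 107 CPM per kb. Vtn, which encodes vitronectin, had 58.9, 42.1, 60.3 and 71.7 CPM per kb, highest in replicate 4. The defining pericyte receptor Pdgfrb had 12.4 ± 2.68 CPM per kb. All 10 were above the background limit, as were 70.2% of all protein-coding genes. All 10 were also above the median level of protein-coding nuclear genes, 1.25 CPM per kb. The other 7 pericyte markers lay between 2.89 ± 0.446 (Anpep) and 8.83 ± 0.886 CPM per kb (Abcc9). Pericytes lie on the same basement membrane as endothelial cells. Their part in the levels given here was not tested, and in bulk RNA fewer cells of a type and less RNA per cell cannot be told apart. Of 7 smooth muscle markers the highest was Myl9 with 13.4 ± 2.01 CPM per kb, and Acta2, smooth muscle actin, had 2.38 ± 0.814 CPM per kb. Of 9 markers of microglia and macrophages, 6 (66.7%, against 70.2% of all protein-coding genes) were above the limit, among them Csf1r, a receptor of these cells, with 0.756 ± 0.451 CPM per kb. Ptprc (which encodes CD45, the antigen sorted against) had 0.218 ± 0.0453 and P2ry12 0.200 ± 0.116 CPM per kb, both under the limit. The lists of fibroblasts, oligodendrocytes and leukocytes had no member over 1 CPM per kb. Among 7 astrocyte markers, the connexin Gja1 had 5.73 ± 0.686 and the water channel Aqp4 0.312 ± 0.0390 CPM per kb. Nrgn, a neuronal gene by its common use, stood alone in the neuron list with 34.6 ± 3.43 CPM per kb, a level in the top 10% of genes, whereas the other 6 neuronal markers lay between 0.275 ± 0.175 (Tubb3) and 0.533 ± 0.247 (Rbfox3). Ttr, the main secreted protein of the choroid plexus, had 17.9, 16.6, 7.97 and 18.6 CPM per kb, with its lowest level in replicate 3. The globin gene Hbb-b1 of red cells had 5.61, 2.43, 7.52 and 16.6 CPM per kb, highest in replicate 4, and shared 62.6% of its sequence windows of 100 bases with other genes.

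**Figure D1:**
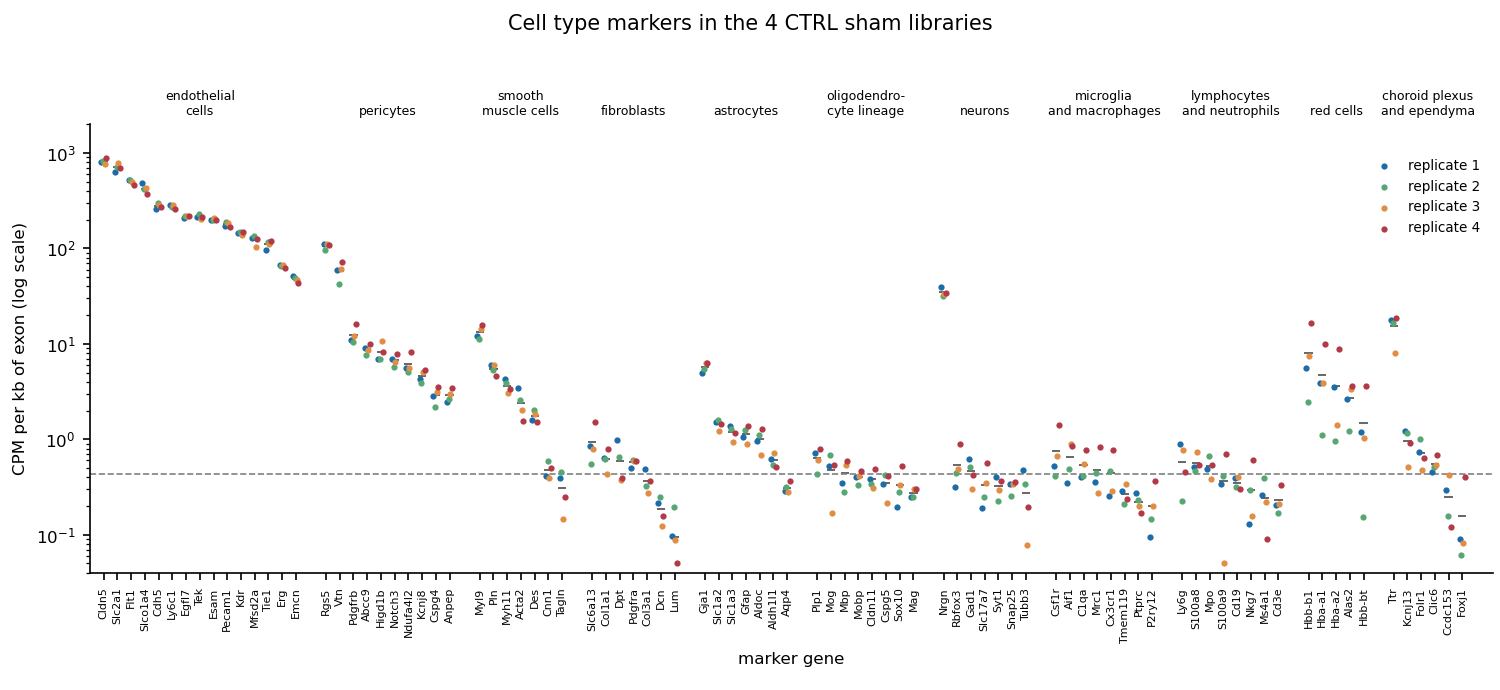
Markers of 11 cell types in the 4 CTRL sham libraries. Each point is 1 library, the short line is the mean, the vertical axis is CPM per kb of exon on a log scale, values under 0.05 are drawn at 0.05, and the dashed line is the background limit of 0.430 CPM per kb; the endothelial markers lie between 47.5 ± 3.36 (Emcn) and 818 ± 46.0 (Cldn5).

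The 5 loci with the most reads do not give messenger RNA. Gm23935, a locus of 57 bases annotated as a microRNA gene, took 4.95% to 8.97% of the counts of a library, and its level in replicates 1 to 4 was 48365, 57276, 66972 and 91274 CPM. The mitochondrial ribosomal RNAs mt-Rnr2 and mt-Rnr1 had 25263 ± 873 and 16562 ± 617 CPM. Malat1 and Gm26917, both annotated as long noncoding RNAs, had 16885 ± 2204 and 16299 ± 3276 CPM. From replicate 1 to 4, Gm26917 rose (12331, 15096, 17977 and 19791 CPM) as Gm23935 did, whereas Malat1 fell (19741, 17333, 15847 and 14620 CPM). Protein-coding genes held 82.8 ± 1.62% of counts, and 790 of them (3.85%) held 50% of the reads of nuclear protein-coding genes. The protein-coding genes with the most reads were Sptbn1, a spectrin of the cell cortex (8761 ± 480.1 CPM), the proteoglycan gene Spock2 (7047 ± 246 CPM), the VEGF receptor gene Flt1 (6755 ± 342 CPM) and Bsg (5964 ± 632 CPM). The long genes Macf1, Syne1, Ahnak and Utrn, which encode giant proteins of the cytoskeleton and the nuclear envelope, were also among the 20 genes with the most reads, with 4508 ± 213, 4259 ± 342, 4213 ± 170.5 and 4003 ± 204 CPM. They fell in rank once length was taken into account, and Syne1 had 105 ± 8.45 CPM per kb.

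Per kilobase, Bsg was first among the genes with a known protein. Bsg encodes basigin (CD147), a partner of monocarboxylate transporters, and had 2802, 3516, 3564 and 3268 CPM per kb. Gm10800, which is annotated as protein-coding with no known function, was listed higher, with 10699.8, 8143, 5562 and 5131 CPM per kb. It was highest in replicate 1 and lowest in replicate 4, and the likewise uncharacterized Gm10801 and Gm21738, also among the first 20, were highest in replicate 1 as well. Spock2 had 1211, 1278, 1289 and 1316 CPM per kb, in a range that did not overlap that of Cldn5. Epas1, which encodes the hypoxia-inducible factor HIF-2alpha, had 795 ± 64.6 CPM per kb and Slc2a1, the glucose transporter GLUT1, 709 ± 64.4 CPM per kb, and the ranges of Epas1, Cldn5 and Slc2a1 overlapped. The genes that followed were B2m, the light chain of MHC class I molecules (705 ± 161 CPM per kb, highest in replicate 3), Actb (676 ± 44.4), the matricellular gene Sparcl1 (675 ± 45.3), the phospholipid transfer protein gene Pltp (601 ± 56.8), the membrane protein gene Itm2a (600.2 ± 44.3), Sptbn1 (501 ± 27.4), Flt1 (500.2 ± 25.4), the amino acid transporter gene Slc7a5 (469 ± 42.1), the selenium carrier gene Selenop (434 ± 40.8) and the organic anion transporter gene Slco1a4 (423 ± 47.3 CPM per kb). Of the first 20 protein-coding genes by CPM per kb, 4 were transporters (Slc2a1, Slc7a5, Slco1a4 and Abcb1a).

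The sequences around the transcription start of 4 of these genes are shown because their products define the barrier or lead their family. They are from RefSeq (GRCm38.p6), run from 250 bases before to 50 after the start, and are written 5′ to 3′ on the strand of the gene. Capitals mark any match, on either strand, to 1 of 4 words searched: TATAAA as in TATA boxes, GGGCGG as in GC boxes, CGGAAG for the core of ETS sites and ACAAAG for the core of SOX sites. In these windows no match overlapped another.
Cldn5, chr16:18776597-18776896, plus strand: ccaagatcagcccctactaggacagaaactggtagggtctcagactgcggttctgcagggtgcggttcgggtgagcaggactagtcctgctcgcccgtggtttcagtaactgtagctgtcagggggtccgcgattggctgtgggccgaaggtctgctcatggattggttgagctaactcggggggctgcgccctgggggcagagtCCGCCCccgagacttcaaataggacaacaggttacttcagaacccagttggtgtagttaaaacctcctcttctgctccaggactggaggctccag
Slc2a1, chr4:119108495-119108794, plus strand: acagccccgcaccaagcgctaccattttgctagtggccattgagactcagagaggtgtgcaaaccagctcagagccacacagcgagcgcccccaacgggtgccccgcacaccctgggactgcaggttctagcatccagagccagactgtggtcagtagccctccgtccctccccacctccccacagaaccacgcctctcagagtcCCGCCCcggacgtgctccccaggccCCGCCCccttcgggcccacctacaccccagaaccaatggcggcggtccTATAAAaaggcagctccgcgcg
Flt1, chr5:147725962-147726261, minus strand: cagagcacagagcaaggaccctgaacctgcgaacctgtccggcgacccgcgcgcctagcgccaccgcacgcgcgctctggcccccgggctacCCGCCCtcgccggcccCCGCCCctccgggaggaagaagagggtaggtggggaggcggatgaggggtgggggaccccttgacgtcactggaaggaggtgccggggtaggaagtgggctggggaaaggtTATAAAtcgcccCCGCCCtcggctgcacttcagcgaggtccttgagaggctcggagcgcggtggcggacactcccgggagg
Mfsd2a, chr4:122961139-122961438, minus strand: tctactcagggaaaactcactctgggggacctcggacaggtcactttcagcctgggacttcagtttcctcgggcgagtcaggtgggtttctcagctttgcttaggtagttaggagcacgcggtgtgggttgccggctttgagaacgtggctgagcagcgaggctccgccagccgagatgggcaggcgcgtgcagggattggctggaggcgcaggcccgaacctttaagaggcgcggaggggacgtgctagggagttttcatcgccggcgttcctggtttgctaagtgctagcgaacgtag
The Cldn5 window held 1 match to GGGCGG, the Slc2a1 window 2 and the Flt1 window 3. TATAAA began 31 bases before the start in Flt1 and 29 bases after it in Slc2a1, and the Mfsd2a window held none of the 4 words. GGGCGG was in 68.6% of the promoters of 1640 genes in the top 10% by CPM per kb with a promoter in the table. It was in 51.9% of the 15025 promoters of all genes ranked and in 35.6% of the 27025 promoters in the table, with 1 per gene. In the same order, CGGAAG was in 28.2%, 23.7% and 17.1%, TATAAA in 8.48%, 10.8% and 14.1%, and ACAAAG in 12.8%, 15.9% and 18.9%. The median GC content of these sets was 63.0%, 58.0% and 52.7%, and its part in the frequency of words made of G and C was not tested. A match to such a word is a description of the sequence and not a binding site.

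In 10 of 13 junction families, the first member held over 50% of the summed level, against 77 of all 113 families ranked. Some families were formed by function or name, such as caveolins with cavins, or the chains of integrins. Their members are not all paralogs, and a lead within them is only an order of levels. Claudins form the strands of tight junctions, and Cldn5 held 98.6 ± 0.102% of the summed level of the 23 claudins measured (of 25 annotated). The second claudin, Cldn12, had 3.61, 2.69, 3.09 and 2.89 CPM per kb, and Cldn5 was higher by 268-fold (221 to 308). Here and below, a fold is the geometric mean of the ratio in the 4 libraries, with the lowest and highest library in parentheses. Cldn20 had 2.45 ± 0.696 CPM per kb, and its range overlapped that of Cldn12. The claudins Cldn1 and Cldn3, which have often been named as components of these junctions, had 0.146 ± 0.0288 and 0.175 ± 0.0726 CPM per kb. With Cldn2, Cldn4 and 13 others they were at or below the background limit, as were 29.8% of all protein-coding nuclear genes. The coding sequences of Cldn5 and Cldn3 were identical at 69.2% of aligned bases, and 28 of the 90 bases shown differ, which are in capitals. They were read from GENCODE transcripts on GRCm38. Of the stretches of 90 aligned bases within 1 exon, the one shown for each pair of paralogs is that whose identity is closest to that of the whole coding sequence. It lies at chr16:18777057-18777146 in Cldn5 and at chr5:134986503-134986592 in Cldn3, in exon 1 and on the plus strand of both.
Cldn5: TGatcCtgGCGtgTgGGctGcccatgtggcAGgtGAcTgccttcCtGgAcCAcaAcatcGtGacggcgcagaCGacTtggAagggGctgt
Cldn3: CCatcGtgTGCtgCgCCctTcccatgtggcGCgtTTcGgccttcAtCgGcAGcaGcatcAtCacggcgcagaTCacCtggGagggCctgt
No window of 100 bases, about the length of a read, of Cldn5 or Cldn3 was found in the transcripts of another gene, so reads of this pair can be told apart.

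Ocln, the tight junction protein occludin, had 95.8, 102, 92.1 and 91.6 CPM per kb and exceeded its relative Marveld2 (tricellulin) by 11.1-fold (6.55 to 21.8). Marveld2 varied, with 4.39, 10.3, 8.64 and 14.0 CPM per kb, lowest in replicate 1 and highest in replicate 4. At tricellular contacts, Lsr (angulin-1) had 106 ± 5.98 and Ildr2 13.6 ± 2.66 CPM per kb, and 44.7% of the exon bases of Lsr overlap an antisense gene. Among junctional immunoglobulin proteins, Esam came first with 202 ± 3.63 CPM per kb, followed without overlap by Jam2 (64.4 ± 3.51) and F11r (JAM-A, 32.1 ± 1.61 CPM per kb). Jam3 had 1.73 ± 0.450 CPM per kb and overlapped with Cxadr (1.78 ± 0.210). Among scaffolds, Tjp1 (ZO-1) had 216, 225, 213 and 204 CPM per kb and Tjp3 had 0.650 ± 0.0868 CPM per kb. The largest lead in any junction family was that of Cgnl1 (paracingulin) over Cgn (cingulin). Cgnl1 had 137, 161, 149 and 169.7 CPM per kb, highest in replicate 4. Cgn had 0.507, 0.381, 0.432 and 0.490 CPM per kb, values on both sides of the background limit, so that the lead of 342-fold (271 to 422) is that of an abundant gene over background.

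In adherens junctions, Cdh5 held 94.2 ± 0.307% of the summed level of 23 cadherins and exceeded Cdh2 (N-cadherin, 4.78 ± 0.188 CPM per kb) by 58.1-fold (55.5 to 63.0). Of its intracellular partners, Ctnnb1 (beta-catenin) had 153 ± 2.04 CPM per kb and differed little between libraries. Ctnna1 (alpha-catenin) had 70.4 ± 3.88 and Jup (plakoglobin) 31.4 ± 4.31 CPM per kb. Ctnnd1 (p120-catenin) had 5.70 ± 0.685 CPM per kb, but 68.5% of its windows of 100 bases are shared with the readthrough gene Gm28635, so its level is uncertain. Gjc1 (connexin 45) was the highest connexin with 24.4, 26.0, 24.2 and 21.6 CPM per kb, 4.21-fold (3.40 to 4.94) above Gja1 (connexin 43, 5.73 ± 0.686). Gja4 (connexin 37, 5.51 ± 0.705) and Gja1 overlapped, and Gja5 (connexin 40), which is known from arterial endothelium, had 0.884 ± 0.207 CPM per kb. Pecam1 exceeded Bcam, a laminin-binding adhesion molecule (114 ± 7.22 CPM per kb), by 1.57-fold (1.39 to 1.67), an order that turned when the median length of a gene's annotated transcripts was used in place of all its exons. Icam2 had 49.7 ± 5.32 CPM per kb, and Icam1 and Vcam1, the adhesion molecules for leukocytes that inflammation induces, had 9.90 ± 1.62 and 8.86 ± 1.25 CPM per kb and overlapped with each other and with Mcam (8.60 ± 1.40). Of the sialomucins, Podxl (podocalyxin) had 325 ± 13.2, Cd34 57.7 ± 4.34 and Emcn 47.5 ± 3.36 CPM per kb. Caveolae are membrane pits that serve vesicle transport. Their coat gene Cavin1 had 169, 202, 206 and 209 CPM per kb and exceeded Cavin2 (104, 116, 126 and 102) by 1.76-fold (1.63 to 2.04), and Cav1 and Cav2, which encode the caveolins, had 66.2 ± 7.68 and 49.4 ± 3.77 CPM per kb in ranges that did not overlap. Cav3 was not above the background limit. Integrins bind the cell to its matrix. The laminin receptor chain Itga6 had 107, 111, 102 and 87.7 CPM per kb. Its partner Itgb1 had 94.3, 102, 102 and 96.2 CPM per kb, in a range that overlapped that of Itga6. They were followed by the collagen and laminin receptor chains Itga1 (25.8 ± 1.66) and Itga3 (11.9 ± 0.349) and the fibronectin receptor chain Itga5 (11.2 ± 1.22 CPM per kb). Leukocyte integrins such as Itgam, Itgal and Itgb2 were not among the 12 integrins with at least 10 CPM.

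**Figure D2:**
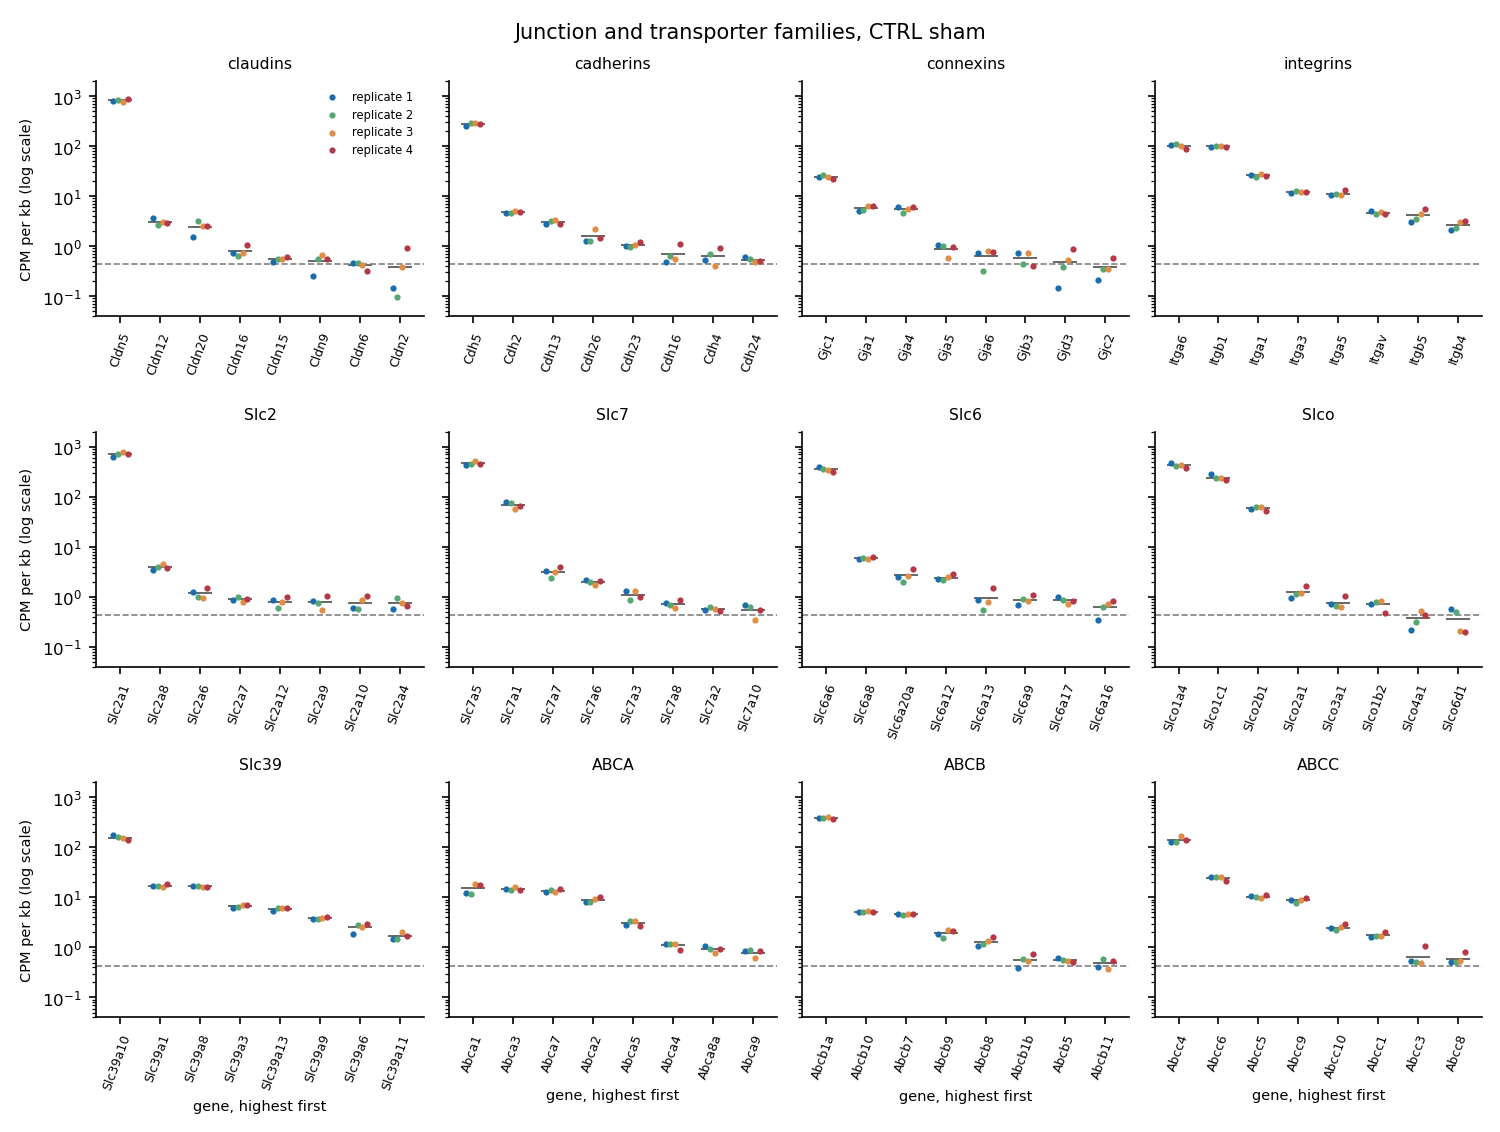
Levels of the members of 4 junction and 8 transporter families, in CPM per kb on a log scale, for up to 8 members each in falling order. Points are the 4 CTRL sham libraries, short lines the means and the dashed line the background limit; Cldn5, Slc2a1 and Abcb1a stand more than 70-fold above the next member, whereas Abca1, Abca3 and Abca7 overlap.

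Of 401 solute carrier genes measured, 312 (77.8%) were above the background limit, against 70.2% of all protein-coding genes, and 33 (8.23%) were in the top 10%. Slc2a1 was first, with 631, 721, 787 and 699 CPM per kb, lowest in replicate 1 and highest in replicate 3. It held 98.5 ± 0.152% of its family and exceeded Slc2a8, an intracellular sugar transporter, by 182-fold (173 to 187). Slc2a3 (GLUT3), the glucose transporter of neurons, had a level of 0.487 ± 0.0506 CPM per kb. Slc7a5 (LAT1), the carrier of large neutral amino acids, had 437, 458, 530.3 and 449 CPM per kb, highest in replicate 3. Its heavy chain Slc3a2 had 115 ± 6.12 CPM per kb. Slc7a1, the carrier of cationic amino acids, followed in its family with 68.7 ± 9.47 CPM per kb, a lead for Slc7a5 of 6.85-fold (5.57 to 9.37), and the remaining 13 members of Slc7 were at or under 3.16 ± 0.605 CPM per kb (Slc7a7). Slc6a6, the taurine transporter, had 399.6, 355, 342 and 315 CPM per kb, highest in replicate 1 and lowest in replicate 4. It exceeded Slc6a8, the creatine transporter, by 59.4-fold (49.4 to 70.3), and carriers of dopamine, serotonin and noradrenaline were not among the 3 members with at least 10 CPM.

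Organic anion transporters move thyroid hormone, steroid conjugates and drugs. Slco1a4 had 483, 414, 425 and 368 CPM per kb, highest in replicate 1. Slco1c1 (OATP14) had 279.6, 237, 234 and 212 CPM per kb, highest in replicate 1 as well. Slco1a4 exceeded Slco1c1 by 1.76-fold (1.73 to 1.81), and Slco2b1 followed with 58.7 ± 5.78 CPM per kb without overlap. Slco1a5, a close relative of Slco1a4 in the same gene cluster, had 0.354, 0.230, 0.349 and 0.248 CPM per kb, under the background limit. The coding sequences of both were identical at 89.4% of bases, and 10 of the 90 bases shown differ (chr6:141839560-141839649 for Slco1a4 and chr6:142266330-142266419 for Slco1a5, minus strand, capitals at the differences).
Slco1a4: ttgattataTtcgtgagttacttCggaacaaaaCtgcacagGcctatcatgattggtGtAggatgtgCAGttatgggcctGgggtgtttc
Slco1a5: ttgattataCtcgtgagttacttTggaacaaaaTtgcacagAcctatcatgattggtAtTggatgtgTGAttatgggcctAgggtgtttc
Only 1.10% of windows of 100 bases of Slco1a4 occur in another gene, so a read seldom fits both. Slc22a8 (OAT3), another organic anion transporter, had 165, 152, 157 and 133 CPM per kb and exceeded the carnitine transporter Slc22a5 (10.6 ± 1.06) by 14.4-fold (13.3 to 15.7).

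Among monocarboxylate transporters, Slc16a1 (MCT1, lactate and ketone bodies) had 106, 89.0, 113 and 73.8 CPM per kb, highest in replicate 3 and lowest in replicate 4. Slc16a4 had 25.1 ± 2.47 CPM per kb. Slc38a3, a carrier of glutamine, had 102, 99.7, 101 and 80.6 CPM per kb. Slc38a5, another glutamine carrier, had 36.9 ± 5.89, Slc38a10 13.5 ± 1.47 and Slc38a2, a carrier of small neutral amino acids, 9.87 ± 1.96 CPM per kb. In the Slc38 family the first 2 members did not overlap. Among glutamate transporters, Slc1a1 (EAAC1) had 16.1 ± 2.17 CPM per kb, with 31.9% of its exon bases overlapped by an antisense gene, and the astrocytic transporters Slc1a2 and Slc1a3 had 1.44 ± 0.157 and 1.19 ± 0.194 CPM per kb. Slc19a3, a thiamine transporter, had 85.2, 82.9, 81.2 and 68.2 CPM per kb, lowest in replicate 4. It stood above its paralogs, the folate transporter Slc19a1 and the thiamine transporter Slc19a2, which had 2.11 ± 0.656 and 1.25 ± 0.149 CPM per kb. For zinc, the importer Slc39a10 had 157 ± 13.1 CPM per kb and a lead of 9.12-fold (7.51 to 10.3) over Slc39a1, and the exporter Slc30a1 had 85.2 ± 12.9 CPM per kb and a lead of 11.6-fold (10.3 to 12.3) over Slc30a4. In the MFSD2 pair, Mfsd2a exceeded Mfsd2b (0.964 ± 0.163 CPM per kb) by 129-fold (98.1 to 186). In 3 transporter families, ABCA among them, the first members were not separated. In the cation-chloride cotransporters, Slc12a4 (7.99 ± 0.939) and Slc12a7 (7.37 ± 1.32 CPM per kb) overlapped. The nucleoside transporters Slc29a1 (2.57, 2.85, 3.19 and 6.24 CPM per kb) and Slc29a4 (3.43 ± 0.444) overlapped, and the first was high in replicate 4. The fatty acid transport proteins Slc27a4 and Slc27a1 had 5.36 ± 0.451 and 4.11 ± 0.360 CPM per kb, without overlap, but the order turned when the length of the longest transcript was used.

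ABC transporters pump drugs and lipids out of cells. Abcb1a, which encodes P-glycoprotein, had 393, 389, 400.5 and 367 CPM per kb and alone held 47.3 ± 1.44% of the summed level of 50 ABC genes. Its tandem paralog Abcb1b, which in mice encodes a second P-glycoprotein, had 0.397, 0.588, 0.533 and 0.746 CPM per kb. The pair lies in a cluster on chromosome 5 and is identical at 88.2% of aligned coding bases. The 90 bases shown are from exon 24 of either gene (chr5:8737654-8737743 and chr5:8851496-8851585, plus strand), with the 11 differing bases in capitals.
Abcb1a: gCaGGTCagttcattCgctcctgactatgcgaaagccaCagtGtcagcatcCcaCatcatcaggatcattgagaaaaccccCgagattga
Abcb1b: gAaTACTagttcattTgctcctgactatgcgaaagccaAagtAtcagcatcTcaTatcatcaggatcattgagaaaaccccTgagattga
Windows of 100 bases that also occur in another gene made up 7.72% of Abcb1a and 8.72% of Abcb1b, so most reads of this length separate them. How reads with several matches were counted is not given in the sources used here. Abcc4 (MRP4) had 127, 131, 166 and 140.0 CPM per kb, highest in replicate 3, and exceeded Abcc6 (24.3 ± 2.32) by 5.79-fold (4.92 to 6.72). Abcg2 (breast cancer resistance protein) had 66.8, 65.9, 69.0 and 58.6 CPM per kb and exceeded Abcg3 (5.27 ± 1.12) by 12.5-fold (10.3 to 14.7), and Abcc1 (MRP1) had 1.76 ± 0.181 CPM per kb. The lipid transporters of the ABCA family were not separated. Abca1, which exports cholesterol, had 12.5, 11.9, 18.8 and 18.1 CPM per kb, low in replicates 1 and 2 and high in 3 and 4. Abca3 and Abca7 had 14.8 ± 0.772 and 13.7 ± 0.874 CPM per kb and differed less between libraries. Of the beta chains of the sodium pump, Atp1b3 led with 39.2 ± 2.74 CPM per kb over Atp1b2 (7.66 ± 1.48). Aqp11 was the highest aquaporin, with 13.1 ± 0.910 CPM per kb, and Aqp1 had 0.751 ± 0.286 CPM per kb. The inward rectifier Kcnj2 (Kir2.1) had 7.80 ± 0.765 and Kcnj8, also a pericyte marker, 4.64 ± 0.676 CPM per kb.

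Of the VEGF receptors, Flt1 (VEGFR1) had 520.3, 517, 499 and 465 CPM per kb. Kdr (VEGFR2) had 144, 148, 138 and 147 CPM per kb. Flt4 (VEGFR3) had 38.5, 41.3, 41.0 and 45.8 CPM per kb. The 3 receptors did not overlap, and Flt1 was lowest and Flt4 highest in replicate 4. Flt1 exceeded Kdr by 3.46-fold (3.17 to 3.61), and with the length of its longest transcript in place of all its exons the level of Flt1 was 979.7 CPM per kb. The coreceptor Nrp1 exceeded Nrp2, with 36.5 ± 1.07 against 17.4 ± 1.02 CPM per kb. Tek (TIE2), the receptor of angiopoietins, had 215, 228, 203 and 213 CPM per kb, and the related Tie1 had 111 ± 10.4 CPM per kb. Among Notch receptors, Notch1 had 56.0, 57.8, 58.9 and 59.5 CPM per kb. Notch4 had 48.2, 52.5, 60.0 and 60.6 CPM per kb, higher in replicates 3 and 4 than in 1 and 2. The pair was not separated. Notch2 had 6.16 ± 0.138 and Notch3, also a pericyte marker, 6.73 ± 0.872 CPM per kb. Wnt signals reach brain endothelium through frizzled receptors with Lrp5, Lrp6 and Adgra2 (GPR124). Fzd6 had 74.3, 71.5, 71.4 and 62.3 CPM per kb. Fzd4, the receptor of norrin as well as Wnt ligands, had 36.1, 42.1, 52.5 and 37.9 CPM per kb, highest in replicate 3. The other 8 frizzled genes were at or under 2.20 ± 0.188 CPM per kb (Fzd1). Lrp8, a receptor of reelin and apolipoprotein E, led the LDL receptor family with 54.1 ± 3.63 CPM per kb, Lrp5 and Lrp6 had 28.2 ± 2.77 and 21.4 ± 1.03, and Adgra2 had 66.8 ± 3.80 CPM per kb.

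In the BMP and TGF-beta system, the type I receptor Acvrl1 (ALK1) had 133, 158, 149 and 138 CPM per kb and exceeded Acvr1 (ALK2, 13.9 ± 0.923) by 10.4-fold (9.93 to 10.7), and Tgfbr1 (ALK5) had 5.86 ± 0.568 CPM per kb. The type II receptors Bmpr2 (73.5, 72.4, 69.5 and 71.3 CPM per kb) and Tgfbr2 (57.5, 62.7, 59.5 and 71.7 CPM per kb) overlapped through the value of Tgfbr2 in replicate 4. The coreceptor endoglin (Eng) had 269, 303, 282 and 295 CPM per kb and exceeded Tgfbr3 (betaglycan, 42.0 ± 3.07) by 6.85-fold (6.15 to 7.89). S1pr1, the receptor by which sphingosine 1-phosphate tightens endothelium, had 178, 189, 183 and 134 CPM per kb, lowest in replicate 4, and S1pr4 and S1pr3 had 5.44 ± 0.699 and 2.99 ± 0.629 CPM per kb. Among guidance receptors, the vascular receptor Robo4 had 80.9 ± 3.38 CPM per kb and Robo1 and Robo2 were below the background limit, Unc5b had 24.5 ± 0.838 CPM per kb, and Plxnd1, a semaphorin receptor, had 67.9, 70.7, 69.9 and 85.3 CPM per kb. Ephb4, the venous Eph receptor, had 60.0 ± 7.02 CPM per kb, and its ligand Efnb2, an arterial gene, had 15.3 ± 0.979 CPM per kb after Efna1 (23.5 ± 3.43), an order that turned with the median transcript length.

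Receptors for hormones and for blood-borne cargo were led by Igf1r, the receptor of insulin-like growth factor 1, with 141, 138, 142 and 138 CPM per kb. The insulin receptor Insr had 43.1, 43.4, 43.3 and 38.1 CPM per kb, and Igf1r exceeded it by 3.33-fold (3.18 to 3.62). Tfrc, the transferrin receptor that takes up iron, had 154, 112, 99.4 and 125 CPM per kb, highest in replicate 1 and lowest in replicate 3, and its paralog Tfr2 had 0.523 ± 0.149 CPM per kb. Of 27 adhesion G-protein-coupled receptors, Adgrf5 had 338, 374, 392 and 343 CPM per kb. Adgrl4 (ELTD1) had 279, 262, 259 and 226 CPM per kb, without overlap, but the order turned with the median transcript length. They were followed by Adgre5 (CD97, 89.0 ± 7.56, with 24.6% of its exon bases overlapped by a gene on the other strand) and Adgrg1 (GPR56, 73.1 ± 12.9 CPM per kb). Ramp2, which pairs with Calcrl to form the receptor of adrenomedullin, had 69.8 ± 10.8 CPM per kb (33.4% of its exon bases overlap the neighboring gene Vps25) and Calcrl 34.7 ± 2.46 CPM per kb. Of 5 interferon receptor genes, 4 (80.0%, against 70.2% of all protein-coding genes) were above the background limit. Ifnar1 had 111, 92.7, 93.1 and 80.2 CPM per kb and Ifnar2 40.2 ± 4.11 CPM per kb, and the interferon-gamma receptor chains Ifngr1 and Ifngr2 had 15.4 ± 1.00 and 4.03 ± 0.109 CPM per kb. Tnfrsf1a exceeded Tnfrsf1b, with 20.7 ± 1.46 against 13.4 ± 0.719 CPM per kb, Il1r1 had 15.2 ± 1.76 CPM per kb and the highest Toll-like receptor was Tlr3, a sensor of double-stranded RNA, with 5.69 ± 0.685 CPM per kb. Receptors of endothelin (Ednrb 1.45 ± 0.455 and Ednra 1.34 ± 0.197 CPM per kb), adenosine (Adora2a 1.25 ± 0.302) and prostanoids (Tbxa2r 5.20 ± 1.72 CPM per kb) were low, and Ednrb and Ednra overlapped.

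The Ly6 proteins are anchored in the membrane by a lipid, and 3 of them were abundant. Ly6c1, used as a marker of endothelium, had 287, 273, 285 and 257 CPM per kb. Ly6a (Sca-1) had 253, 268, 257 and 240.3 CPM per kb, in a range that overlapped that of Ly6c1. Ly6e had 168, 180.2, 178 and 189.8 CPM per kb. Ly6c2, the paralog of Ly6c1 that monocytes use, had 0.393, 0.312, 0.395 and 0.179 CPM per kb, at or below the background limit in every library. This pair is the closest shown here: coding sequences were identical at 92.7% of aligned bases, 15.3% of windows of 100 bases of Ly6c1 also occur in another gene, and the stretch of 90 bases shown (chr15:75045519-75045608 and chr15:75108660-75108749, minus strand, exon 4) differs at 1 base, in capitals.
Ly6c1: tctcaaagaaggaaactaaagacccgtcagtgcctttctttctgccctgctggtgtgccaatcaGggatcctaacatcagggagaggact
Ly6c2: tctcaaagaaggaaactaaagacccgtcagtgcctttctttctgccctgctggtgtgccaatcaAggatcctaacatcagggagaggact
A read that lies in the shared part cannot be assigned to either gene by its sequence, which holds for 15.8% of the windows of Ly6c2.

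**Figure D3:**
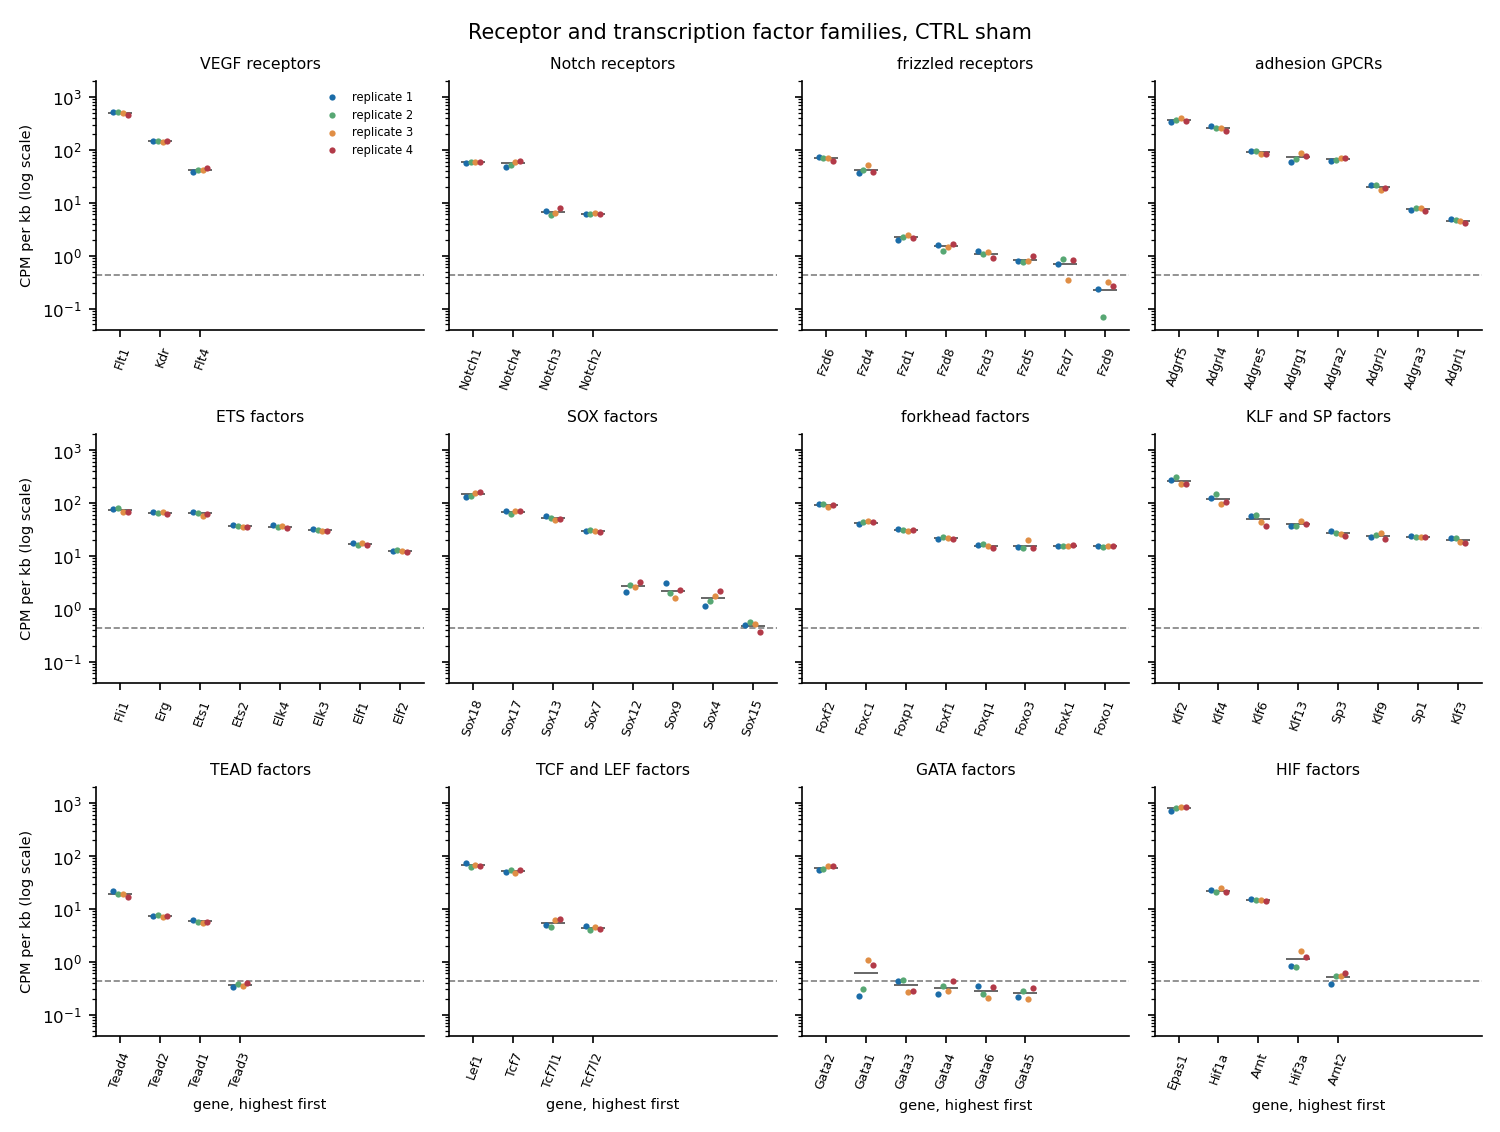
Levels of paralogs in 4 receptor and 8 transcription factor families, in CPM per kb on a log scale, for up to 8 members each in falling order. Points are the 4 CTRL sham libraries, short lines the means and the dashed line the background limit; the VEGF receptors fall in 3 separate steps, whereas Notch1 and Notch4 and the ETS factors Erg and Ets1 lie side by side.

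Of 26 ETS factors, Fli1 had 76.6, 79.6, 67.7 and 66.5 CPM per kb. Erg had 65.0 ± 2.15 and Ets1 63.2 ± 4.62 CPM per kb, and the ranges of Fli1, Erg and Ets1 overlapped. Ets2, Elk4 and Elk3 followed with 36.0 ± 2.24, 35.6 ± 2.01 and 30.5 ± 1.55 CPM per kb. With the length of the longest transcript, Ets1 was first. SOX factors of the F group, which specify endothelium, held 3 of the first 4 places, and Sox18 had 129, 135, 153 and 163 CPM per kb, lowest in replicate 1 and highest in replicate 4. Sox17 had 68.5 ± 4.13 and Sox7 28.9, 30.3, 28.9 and 28.3 CPM per kb, and Sox13, of another group, lay between these with 52.2 ± 3.74 CPM per kb. The order of the 4 was the same in all libraries, though that of Sox18 and Sox17 turned with the median transcript length. Among 44 forkhead factors, Foxf2, a factor known from brain vessels, had 95.7, 93.9, 83.2 and 92.8 CPM per kb and exceeded Foxc1 (42.4 ± 2.27) by 2.15-fold (1.86 to 2.43). Foxp1 and Foxf1 had 30.8 ± 1.14 and 21.5 ± 1.08 CPM per kb, and the barrier-associated Foxq1 had 15.6 ± 1.22 CPM per kb, with 66.1% of its exon bases overlapped by an antisense gene. Klf2, which blood flow induces in endothelium, had 272, 305, 226 and 227 CPM per kb. Klf4, induced likewise, had 122, 145, 97.0 and 102 CPM per kb. Klf6 had 57.3, 59.6, 43.4 and 36.0 CPM per kb. All 3 were higher in replicates 1 and 2 than in 3 and 4. Klf2 exceeded Klf4 by 2.22-fold (2.10 to 2.33), but the order turned with the median transcript length.

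Of the factors of Wnt signaling, Lef1 had 74.3, 61.2, 66.7 and 63.6 CPM per kb. Tcf7 (TCF1) had 49.1, 53.6, 48.3 and 54.0 CPM per kb, just below the range of Lef1. Tcf7l1 and Tcf7l2 were lower, with 5.45 ± 0.877 and 4.32 ± 0.290 CPM per kb. Of the ZIC factors, Zic2 had 82.6 ± 5.24 and Zic5 8.63 ± 1.24 CPM per kb, without overlap. Gata2 had 60.1 ± 6.16 CPM per kb and the other 5 GATA factors were at or under 0.619 ± 0.418 CPM per kb (Gata1). Epas1 had 700.5, 806, 832 and 841 CPM per kb, lowest in replicate 1. It exceeded Hif1a, which had 22.5, 20.7, 24.4 and 20.4 CPM per kb, by 36.1-fold (31.2 to 41.2), the largest lead among transcription factor families but for that of Gata2. Tbx1 and Tbx3 had 36.9 ± 1.27 and 30.9 ± 2.74 CPM per kb, and Meox1 had 4.74 ± 0.662 CPM per kb with Meox2 (0.310 ± 0.0367) below the limit. Of the 2 coactivators that the other genotype lacks, Wwtr1 (TAZ) had 51.9 ± 1.52 CPM per kb. Yap1 had 11.3, 11.4, 11.1 and 11.4 CPM per kb, and both varied little. Wwtr1 exceeded Yap1 by 4.58-fold (4.37 to 4.80) per kilobase of all exons, but the order turned with the median transcript length, so which of the pair was more abundant depends on the length assumed. Their DNA-binding partners were led by Tead4 (22.2, 19.1, 18.9 and 16.7 CPM per kb), followed by Tead2 (7.35 ± 0.340) and Tead1 (5.77 ± 0.351), and Tead3 was below the limit. The order of Tead4 and Tead2 turned with the median transcript length. The Notch targets Hey1 and Hes1 overlapped, with 17.6 ± 1.90 and 17.4 ± 2.12 CPM per kb. Id1, a target of BMP signaling, had 112, 136, 133 and 140.2 CPM per kb. Id3 had 51.9, 62.5, 63.9 and 71.8 CPM per kb, and both were lowest in replicate 1 and highest in replicate 4. Their order turned with the median transcript length. The inhibitory SMADs Smad7 and Smad6 had 55.6 ± 6.66 and 20.6 ± 1.84 CPM per kb. The STAT factors Stat6 (26.6 ± 1.27) and Stat2 (25.6 ± 2.95 CPM per kb) and the IRF factors Irf9 (22.5 ± 1.16) and Irf7 (20.9 ± 1.15 CPM per kb) overlapped. Rela exceeded Nfkb1, with 33.1 ± 1.88 against 12.7 ± 0.407 CPM per kb. Jun had 62.6, 85.3, 57.1 and 66.6 CPM per kb and exceeded Jund by 3.83-fold (3.26 to 5.45). The glucocorticoid receptor gene Nr3c1 had 36.4 ± 2.26 CPM per kb and came after the clock gene Nr1d1 (50.9, 61.8, 59.3 and 47.7) and the thyroid hormone receptor gene Thra (38.1, 37.4, 39.2 and 47.4 CPM per kb). Nr1d1 and Thra lie tail to tail on opposite strands, and their order turned with either other measure of length. Of 39 HOX genes, 3 (7.69%, against 70.2% of all protein-coding genes) were above the background limit. The highest, Hoxb7, had 0.739 ± 0.0427 CPM per kb.

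Genes of the matrix and of secreted signals were led by Spock2 and Sparcl1, with 1274 ± 44.5 and 675 ± 45.3 CPM per kb, and Sparc had 194, 151, 142 and 193 CPM per kb. The basement membrane collagens Col4a1 and Col4a2, which assemble into 1 trimer, had 127, 145, 148 and 178 CPM per kb (Col4a1) and 102, 118, 128 and 144 CPM per kb (Col4a2), and both were lowest in replicate 1 and highest in replicate 4. Laminin chains were ordered Lamb2 (115 ± 6.73), Lama5 (62.2 ± 2.15), Lamc1 (32.2 ± 2.30) and Lama4 (17.0 ± 2.37 CPM per kb), and the nidogens Nid1 (16.7 ± 1.40) and Nid2 (16.6 ± 1.57) overlapped. Igfbp7 held 90.9 ± 7.81% of the level of the IGF-binding proteins, with 295, 340.4, 335 and 320.3 CPM per kb. Cxcl12, a chemokine of resting vessels, had 370.1, 330.4, 344 and 369 CPM per kb and exceeded the next CXC chemokine, Cxcl17 (2.34 ± 0.569), by 154-fold (121 to 214). The highest CC chemokines, Ccl27a and Ccl25, had 2.25 ± 0.201 and 2.22 ± 0.226 CPM per kb. Pdgfb, which recruits pericytes and whose promoter drives the Cre of the knockout line, had 91.5, 89.2, 97.1 and 95.1 CPM per kb, and Pdgfd 31.0 ± 1.06 CPM per kb. Of the Notch ligands, Jag2 had 61.3 ± 2.23, Dll4 46.6 ± 5.39 and Jag1 29.8 ± 0.621 CPM per kb. The semaphorin Sema3c had 113, 112, 108 and 102 CPM per kb, 2.66-fold (2.32 to 3.24) above Sema3g. Tgfb2 exceeded Tgfb1, with 28.8 ± 3.84 against 15.6 ± 0.706 CPM per kb, Edn1 (endothelin-1) had 45.6 ± 3.18 and Edn3 21.2 ± 3.73 CPM per kb in an order that turned with the median transcript length, and the VEGF ligands Vegfc (8.50 ± 0.751), Vegfb (7.43 ± 0.695) and Vegfd (6.46 ± 1.31) overlapped and stood above Vegfa (1.12 ± 0.333 CPM per kb). Angpt2 had 7.12, 8.81, 11.1 and 9.43 CPM per kb. The endothelial nitric oxide synthase gene Nos3 had 71.5, 76.3, 71.2 and 71.1 CPM per kb (32.3% of its exon bases overlapped by an antisense gene) and exceeded Nos2 by 6.96-fold (6.20 to 7.69). Car4, the carbonic anhydrase on the surface of brain capillaries, had 231, 235, 217 and 201 CPM per kb and exceeded Car2 by 10.7-fold (9.97 to 11.2).

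Over all 113 families with at least 2 measured members, the leading member exceeded the next in every library without overlap of ranges in 94, and the ranges overlapped in 19. The lead was at least 2-fold in 72 and at least 10-fold in 31 families, and the leader held more than 90% of its family's level in 23. The median share of the leader was 73.4% in transporter families, 72.0% in junction families, 64.8% in receptor families, 65.7% in families of matrix and secreted proteins and 49.9% in transcription factor families, but families differ in their number of members, and these shares are a description. Non-overlap occurred in 23 of 26 transporter, 12 of 13 junction, 28 of 33 receptor, 14 of 18 secreted and 17 of 23 transcription factor families. No test was run on these orders, and non-overlap of 4 libraries is a description.

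**Figure D4:**
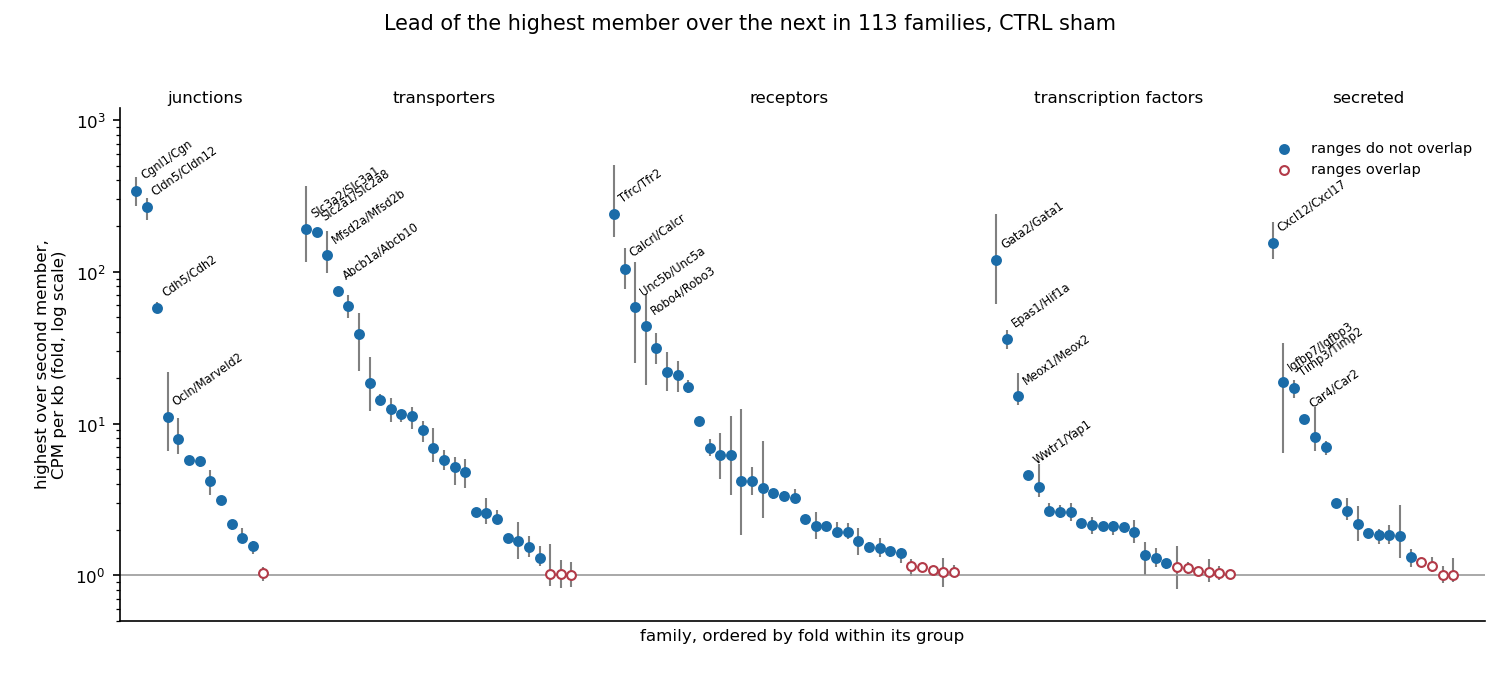
Lead of the highest over the second member in 113 families, as the geometric mean of the ratio of CPM per kb over the 4 CTRL sham libraries (points) with the lowest and highest library (lines), on a log scale. Filled points are the 94 families whose ranges do not overlap; the largest leads, Cgnl1 over Cgn, Cldn5 over Cldn12 and Tfrc over Tfr2, exceed 200-fold, and open points lie near 1.

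Genes known to vary along the vascular tree were present for each segment. Capillary genes were highest: after Spock2, Itm2a had 610.1, 647, 603 and 540.4 CPM per kb, and Rgcc, the lowest of 9, had 73.7, 95.7, 121 and 75.5 CPM per kb. Arterial genes were led by the phosphatase gene Alpl (61.4, 54.7, 61.4 and 57.4 CPM per kb), Sema3g (34.7, 46.1, 39.5 and 43.9), Mgp (26.5, 29.3, 33.7 and 42.9) and Jag1 (29.3, 30.2, 30.5 and 29.3 CPM per kb), and Gkn3 and Bmx, which mark arterial endothelium of the brain, had 23.2 ± 3.43 and 13.4 ± 0.201 CPM per kb. Venous genes were led by Vwf, the von Willebrand factor, with 61.0, 61.6, 80.5 and 78.5 CPM per kb, Tmsb10 (64.9 ± 5.57, 21.5% of windows shared with another gene) and Ephb4, and Nr2f2, the venous transcription factor COUP-TFII, had 5.93 ± 1.56 CPM per kb. The venular genes Ackr1 and Selp, which leukocytes use for adhesion and entry, had 1.65 ± 0.389 and 0.428 ± 0.143 CPM per kb, the latter below the background limit. These are levels of the mixture, in which the number of cells of each segment is not known. Of 8 genes of the cell cycle, 5 were under the limit, as were 29.8% of all protein-coding nuclear genes. Among the 5 were Mki67 (0.383 ± 0.0709), Top2a (0.357 ± 0.0509) and Cdk1 (0.362 ± 0.0649 CPM per kb), and the cyclin gene Ccna2 lay just above it with 0.659 ± 0.0673 CPM per kb. Pcna and Mcm5, which also serve DNA repair and entry into S phase, had 9.44 ± 2.12 and 1.64 ± 0.202 CPM per kb. Immediate early and stress genes, which dissociation is known to induce, were present, and Jun (values above) was the highest of 14. Fos had 15.3, 10.3, 5.62 and 7.79 CPM per kb. Dusp1 had 33.9, 39.6, 22.5 and 16.6 CPM per kb. Nr4a1 had 14.8, 13.7, 8.21 and 5.13 CPM per kb. All 3 were higher in replicates 1 and 2 than in replicates 3 and 4, as were 9 of the 14, Egr1 (5.48 ± 2.12 CPM per kb) included. Jun, Ier3, Zfp36, Hspa1a and Fosb were not. Of all genes whose mean reached 10 CPM, 19.4% were higher in both replicates 1 and 2 than in 3 and 4, and 19.9% were lower in both.

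The libraries differed most in genes of the sex chromosomes. Xist had 2.27, 2.14, 922 and 713 CPM. Ddx3y had 101 and 104 CPM in replicates 1 and 2 and was under the limit of 3 reads in replicates 3 and 4. The Y-linked genes Uty, Kdm5d and Eif2s3y were split in the same way. The labels name no sex for a pool. The same split of replicates 1 and 2 from 3 and 4 was seen in Klf2, Klf4, Klf6, Fos, Dusp1, Nr4a1 and Abca1, and whatever sets these pairs of pools apart cannot be told apart from sex here. Of the genes whose mean reached 10 CPM, 29 were more than 2-fold higher in replicate 4 than in every other library, against 0, 0 and 2 in replicates 1, 2 and 3. More than 2-fold lower than in every other library were 2, 0, 5 and 3 genes in replicates 1 to 4. The first of the 29 were Igfbp5, a binding protein of insulin-like growth factors, with 2.87, 3.20, 3.75 and 129.6 CPM, and the transcription factor Meis2 with 3.83, 3.79, 4.40 and 48.9 CPM. Both reached the mean of 10 CPM only through replicate 4. The filter thus lets in genes that are high in 1 library, and the count of 29 is in part made by it. Plvap, which forms the diaphragms of fenestrae and is low in mature barrier endothelium, had 20.3, 33.2, 46.8 and 290.4 CPM. Igfbp3 (27.4, 34.9, 56.1 and 157 CPM), Col15a1 (9.70, 13.7, 15.2 and 68.8), Exoc3l2 (5.81, 8.81, 11.6 and 62.0), Trp53i11 (11.8, 11.9, 13.9 and 95.4) and Kif5a (6.05, 4.65, 9.53 and 65.1 CPM) were in the same way high in replicate 4. Of 7 genes listed for fenestrated endothelium, Plvap, Igfbp3, Plpp1 and Plpp3 were highest in replicate 4, as was Gpihbp1 (0.258, 0.376, 0.537 and 1.08 CPM per kb), whereas Esm1 and Plpp2 were not, which makes 5 of 7. Of all protein-coding nuclear genes, 31.2% were highest in replicate 4, and 25.0% of the genes whose mean reached 10 CPM. The choroid plexus has fenestrated vessels, but its marker Ttr (values above) is of the epithelium and gives no level of those vessels. Of the 6 red cell genes, 5 were highest in replicate 4, but 4 of the 6 are globin genes of like sequence and are not separate counts. The part of other vessels or of blood in the values of replicate 4 was not tested. Without replicate 4, and with scaling factors computed anew for the other libraries, some levels changed. Plvap then had 16.9, Igfbp3 12.7 and Igfbp5 0.549 CPM per kb instead of 49.1 ± 64.9, 22.0 ± 19.2 and 5.80 ± 10.5. The barrier genes Cldn5 and Mfsd2a had 803 and 124 CPM per kb. The MHC class I gene H2-Q6 had 34.4, 67.7, 194 and 95.8 CPM, highest in replicate 3 like H2-Q7, a near copy whose reads may be shared with it. B2m had 505, 611, 801 and 509 CPM, also highest in replicate 3. The more abundant class I gene H2-D1 had 781, 1024, 1105 and 664 CPM, with replicates 2 and 3 close to each other. The long noncoding gene Gm42047 had 17.1, 14.7 and 20.9 CPM in replicates 1 to 3. In replicate 4 it lay under the limit of 3 reads. Ifi208, an interferon-inducible gene, was also lowest in replicate 4 (9.52, 16.2, 22.2 and 1.66 CPM).

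**Figure D5:**
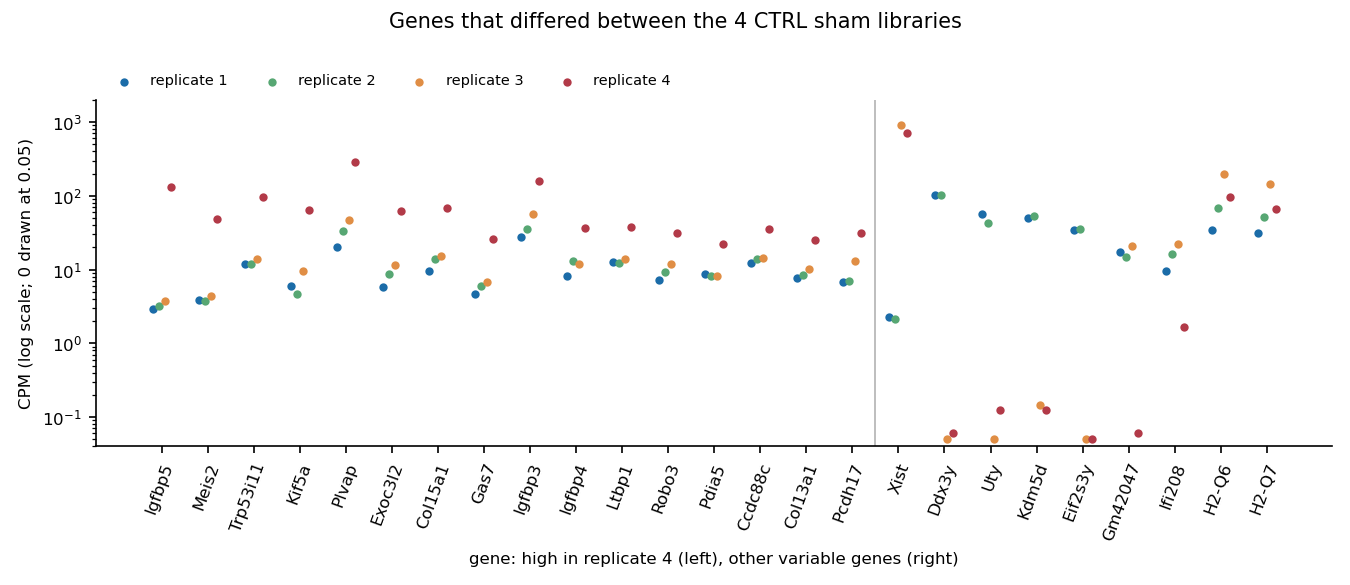
Genes that differed between the 4 CTRL sham libraries, in CPM on a log scale, with each library as a point. On the left, 16 genes of which replicate 4 held more than 2-fold the level of every other library; on the right, the sex-linked genes and others of large SD, in which replicates 1 and 2 are split from 3 and 4 (Xist, Ddx3y) or 1 library lies apart.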

How the data were processed

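RNA of sorted brain endothelial cells was amplified with the SMART-Seq Ultra Low Input kit, which reads whole transcripts, keeps no strand and has no molecular identifiers, and was sequenced as read pairs. Per the study's methods and the labels, reads were mapped to the mouse genome GRCm38 with STAR 2.7.8a and GENCODE annotation M12. The deposited values are raw counts of reads per gene; the counting program and its treatment of reads with several matches are not given in the sources used here. The authors used DESeq2 on all groups, which did not enter here. Counts of the 4 CTRL sham libraries (replicates 1 to 4, as labelled) were scaled with TMM factors (edgeR 4.0.16, R 4.3.3) to CPM and divided by the length of all exons of a gene in GENCODE M21, the GRCm38 annotation at hand (36861 of 37003 genes matched). Amplification, GC content and uneven coverage along transcripts can change levels of different genes in ways that length does not correct, and reads of pseudogenes or overlapping genes can be exchanged. Without molecular identifiers, the limit of 3 reads covers counting error only.

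Families were ranked by mean CPM per kb, and a leader was called separate where the ranges of the 4 libraries did not overlap. No comparison between groups and no test was made. Genes named were the 20 highest by CPM and by CPM per kb, the leader, runner-up and up to 3 more members above 10 CPM of each family (up to 8 for all solute carriers and all ABC transporters), members of the marker and vascular segment lists, and the 10 genes of largest SD. Other genes named, such as paralogs at background, immediate early genes and further genes that set replicate 3 or 4 apart, were chosen after their values were seen. Some genes that met this rule are not reported here. Members and gene lists were chosen with earlier results of these data known. Promoters were RefSeq's and coding sequences GENCODE's, both on GRCm38. Alternatives were other scalings, lengths, thresholds and a background correction, and leaving out each library.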

Additional observations from a re-analysis of the deposited data

Results flagged for a closer look

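In 25 of 316 values tested (7.91%) 1 library lay far from the other 3 by Dixon's criterion, which chance meets in about 1 of 20 such groups. The distant library was replicate 4 in 16, replicate 1 in 6, replicate 3 in 2 and replicate 2 in 1. All values in this paragraph are levels in CPM per kb of the distant library. Replicate 4 was highest in the genes described above as high in it, Plvap (146), Trp53i11 (25.9), Igfbp5 (21.6), Exoc3l2 (15.4), Col15a1 (10.8), Kif5a (9.31) and Meis2 (4.06). It was also highest in Plxnd1 (85.3), the matrix gene Nid1 (18.8), the fibronectin receptor chain Itga5 (13.0), Vegfb (8.46), the nucleoside transporter Slc29a1 (6.24) and Abcc1 (2.03), and lowest in the glutamine carrier Slc38a3 (80.6), the insulin receptor Insr (38.1) and Abcc6 (20.8). Replicate 1 was highest in the mitochondrial rRNA mt-Rnr1 (18307) and in Zic5 (10.5), and lowest in Sptbn1 (460.2), Cavin1 (169), Ramp2 (53.6) and Tnfrsf1b (12.3). Replicate 3 was highest in the lipid transporter Abca3 (15.9) and lowest in Tgfb1 (14.5), and replicate 2 was highest in Nos3 (76.3). These genes had been selected in part for their spread between libraries, so the share of such values does not stand for all genes. The causes were not tested.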

How the results depend on the processing

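Column totals, DESeq2 size factors and leaving out mitochondrial genes multiply all genes of a library by the same factor. They therefore could not change a fold of leader over runner-up, and its constancy is no sign of stability. The number of genes with at least 1 CPM in all libraries was 16631, and 16994 to 17095 when 1 library was left out. It was 10389 with a threshold of 5 CPM. The number of families with a separate leader was 94, between 94 and 101 with 1 library left out, and 99 with the longest or the median transcript length. The leader of 113 families was kept in 107 to 111 with 1 library left out, in 100 with the longest and in 88 with the median transcript length. All 15 endothelial markers stayed in the top 10% under every alternative run. With the median transcript length in place of all exons, 11 called leads turned, not all of which are described above. The fold of leader over runner-up became 0.823 for Pecam1 over Bcam, 0.774 for Efna1 over Efnb2 and 0.596 for Adgrf5 over Adgrl4. It became 0.667 for Sox18 over Sox17, 0.627 for Klf2 over Klf4, 0.637 for Tead4 over Tead2 and 0.737 for Wwtr1 over Yap1. For Id1 over Id3 it was 0.954, for Nr1d1 over Thra 0.337, for Edn1 over Edn3 0.832 and for Bmp1 over Bmp6 0.796. Bmp1 was grouped with the BMP ligands by its name but encodes a protease, so this last lead is not one between paralogs. With the longest transcript it became 0.781 for Slc27a4 over Slc27a1, 0.884 for Mef2d over Mef2a and 0.814 for Nr1d1 over Thra. Most other values moved too: only 22 of 108 folds and 54 of 312 levels stayed within the SD between libraries with the median transcript length, and 43 of 108 folds and 135 of 312 levels with the longest. Taking an even background off moved 6 of 107 folds and 22 of 312 levels by more than that SD and turned no order; it raised the fold of Cgnl1 over Cgn from 342 to 519 and that of Tfrc over Tfr2 from 241 to 359, so leads over members near background have no firm size, and 1 fold could not be computed. Leaving out mitochondrial genes moved 43 of 312 levels. The median is taken over all annotated transcripts of a gene, short fragments included. Depth limits levels near 3 reads per library. No paired analysis was possible because only 1 group was used.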
